A study of Rattus norvegicus with 10 samples.

Results

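Epithelial cells of the stomach lining are joined by tight junctions, which restrict passage between cells, and by adherens junctions, which hold the cells together. Occludin and claudins are the membrane-spanning proteins of tight junctions, ZO-1 ties them to the actin cytoskeleton, and E-cadherin forms the adhesive contacts of adherens junctions. In the stomach this layer keeps acid and pepsin out of the tissue. The transcripts of 4 of these genes are described here, out of 32623 annotated genes: Ocln (ENSRNOG00000018297), Tjp1 (ENSRNOG00000011077), Cldn1 (ENSRNOG00000001926) and Cdh1 (ENSRNOG00000020151). They were taken as named barrier genes by identifier and chromosome, a rule that uses no measured value. Earlier results of these data were known when they were chosen.

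The RNA came from gastric mucosa of rats of the Sprague Dawley strain, in 5 groups of 2 libraries. One group was given honokiol, a plant compound from magnolia, into the peritoneum at 40 mg/kg, and 30 min later indomethacin by mouth at 48 mg/kg. The others received indomethacin alone at 48 mg/kg, diclofenac at 75 mg/kg or aspirin at 400 mg/kg by mouth, or were controls for which the labels state no treatment. These non-steroidal anti-inflammatory drugs inhibit cyclooxygenases and are known to injure the gastric mucosa. The labels put the drug libraries at 4 h; the honokiol libraries carry a time label of 0.5 h, which has the length of the honokiol lead, and the general protocol gives 4 h after the drug. The age of the animals is not stated. Whether the 2 libraries in each group stem from different rats is not said, so the p-values reflect only how far these libraries differ. In the indomethacin and control groups, 1 library held Y chromosome reads (4438 and 3582 counts) and the other almost none (2 and 1), so these pairs were not repeats of the same RNA. In the other 3 groups the spread may be technical.

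Library totals ran from 23892226 to 44977459 counts, of which mitochondrial features held 21.1% to 36.2%. Between replicates of a group the chi-square per degree of freedom was 38.1 to 389, more than counting noise gives. The libraries differed in reads on the Y chromosome: 4 held at least 2733 counts on 7 Y features and the other 6 at most 47. The 4 with Y reads were both libraries of honokiol plus indomethacin, indomethacin replicate 1 and control replicate 1. All aspirin and diclofenac libraries lacked Y reads. Their tables each held 2 lines without a gene identifier and those of all other libraries 1, so separate handling of these libraries and the drugs cannot be told apart. The labelled cell type, epithelial cells, was not checked against other markers, because 0 of the 32623 identifiers could be paired with a symbol in the reference table. Cdh1 itself, which marks epithelium, was abundant in all 10 libraries.

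The 4 genes lay far apart in level. Per kilobase of listed exon length, Cdh1 averaged 41.2 CPM (counts scaled to a common library depth) over the 10 libraries, Ocln 12.2, Tjp1 7.56 and Cldn1 0.0774. Among the 16346 genes that passed the low-count filter, 95.9% were lower than Cdh1 on this scale, 86.5% lower than Ocln, 78.4% lower than Tjp1 and 1.5% lower than Cldn1. This order of Cdh1, Ocln, Tjp1 and Cldn1 held in the group means of honokiol plus indomethacin, indomethacin, diclofenac, aspirin and control alike. By library it failed only in aspirin replicate 1, where Tjp1 (8.74 CPM per kilobase) stood above Ocln (7.19). All 4 genes passed the filter, but Cldn1 reached 10 counts in only 4 of the 10 libraries. Values below are CPM scaled by TMM factors, which equalise the libraries for composition, and are not divided by length unless stated.

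**Figure D1:**
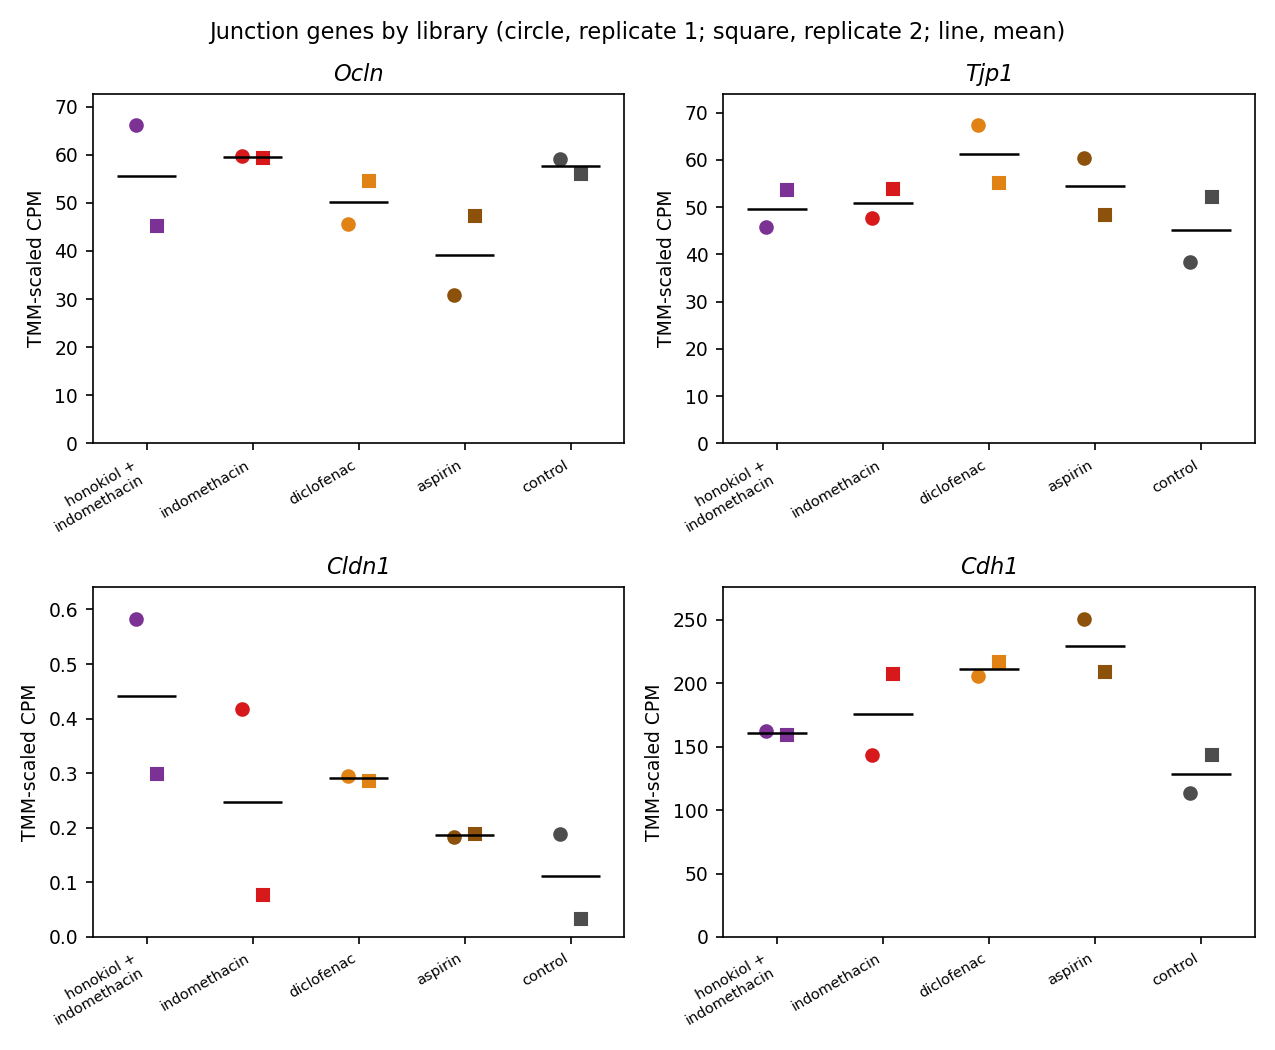
TMM-scaled CPM (y axis, from 0) of Ocln, Tjp1, Cldn1 and Cdh1 in each library of the 5 groups (x axis); circles are replicate 1, squares replicate 2 and lines the group mean. Cdh1 lies at 206 to 251 CPM in the diclofenac and aspirin libraries and at 113 and 143 CPM in control, while Cldn1 stays under 0.6 CPM everywhere.

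Cdh1 encodes E-cadherin, the calcium-dependent adhesion protein of adherens junctions. Its gene spans chromosome 19 from 38768467 to 38838395 on the plus strand in the coordinates of the files, whose genome build is not stated, with 16 distinct exons and 4396 nt of exon sequence. Aspirin libraries had 251 and 209 CPM, against 113 and 143 CPM in control libraries, with no overlap. This was a rise by a log2 fold change of 0.84 ± 0.25 (SE), a fold of 1.79 with a 95% interval of 1.22 to 2.63, and it passed the test (edgeR adjusted p = 0.042). The lack of overlap was not particular to aspirin, since Cdh1 lay above both controls in every other drug group too. How many of all genes separate in this way was not counted, here or for the other genes and comparisons below. Cdh1 was the only one of the 4 genes called in any of the 8 comparisons made. With aspirin 17.8% of all tested genes were called, and 15% of all tested genes had a smaller p than Cdh1, so a call was common here and most called genes ranked ahead of Cdh1.

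Diclofenac libraries had 206 and 217 CPM of Cdh1, against 113 and 143 CPM in control libraries, again with no overlap. The log2 fold change was 0.72 ± 0.25 (SE), a fold of 1.65 with an interval of 1.12 to 2.42, and it did not pass the edgeR test (adjusted p = 0.097). Of 21 alternative fits only DESeq2 called it, at the same size (log2 fold change 0.73, adjusted p = 0.030). How many of all genes DESeq2 called here is not given. Over the 21 fits the log2 fold change ran from 0.51 to 0.93. A term for Y reads gave the lowest, 0.51 ± 0.25 (SE, adjusted p in edgeR = 0.30). In this comparison edgeR called 0 of the 4 genes and 7.87% of all genes. At an unadjusted edgeR p under 0.05 there were 1 of the 4 and 4401 of all 16346 tested genes.

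Indomethacin libraries lay apart from each other in Cdh1, at 143 CPM in replicate 1 and 208 CPM in replicate 2, against 113 and 143 CPM in control libraries. Replicate 1 thus stood just above the higher control, and replicate 2 in the range of aspirin and diclofenac. The log2 fold change was 0.45 ± 0.25 (SE, adjusted p in edgeR = 0.62), with a 95% interval of the fold from 0.93 to 2. With honokiol before indomethacin Cdh1 had 162 and 159 CPM, between the values of the 2 indomethacin libraries. The log2 difference was 0.32 ± 0.25 from control and -0.13 ± 0.25 from indomethacin alone (SE, adjusted p in edgeR = 0.83 and 0.93). By mean TMM-scaled CPM the order was aspirin, diclofenac, indomethacin, honokiol plus indomethacin and control, and no neighbours in this order differed by the test.

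**Figure D2:**
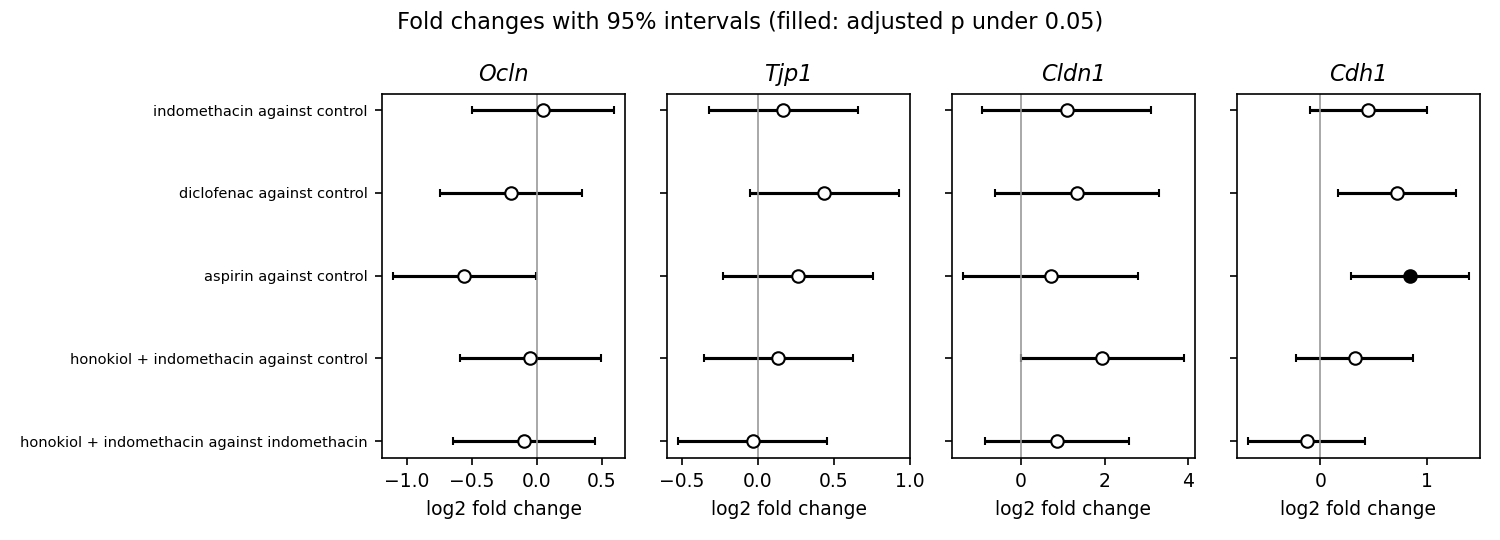
Log2 fold changes (x axes, which differ in scale) of each gene in 5 comparisons (rows), with 95% intervals from the edgeR fit; filled points have an adjusted p under 0.05. The only filled point is Cdh1 with aspirin, at 0.84.

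The Cdh1 call with aspirin was sensitive to single libraries and to the model. Of 21 alternative fits it passed the threshold in 9, always with a positive log2 fold change, of 0.62 to 1.12. It was lost without control replicate 1 (log2 fold change 0.72, edgeR adjusted p = 0.18) and without aspirin replicate 1 (0.70, adjusted p = 0.20), fits in which the lone library of a group is assumed to vary like the other groups. A term for Y reads gave 0.63 ± 0.25 (SE, adjusted p in edgeR = 0.14), and the replicate block gave 0.86 ± 0.27 (SE, adjusted p in edgeR = 0.058). Among libraries without Y reads, aspirin had 251 and 209 CPM, diclofenac 206 and 217 CPM and indomethacin 208 CPM, against 143 CPM in the 1 control library. Among libraries with Y reads, honokiol plus indomethacin had 162 and 159 CPM and indomethacin 143 CPM, against 113 CPM in the 1 control library. Every drug library was thus above the control of its own kind, a difference that rests on a lone control each time.

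**Figure D3:**
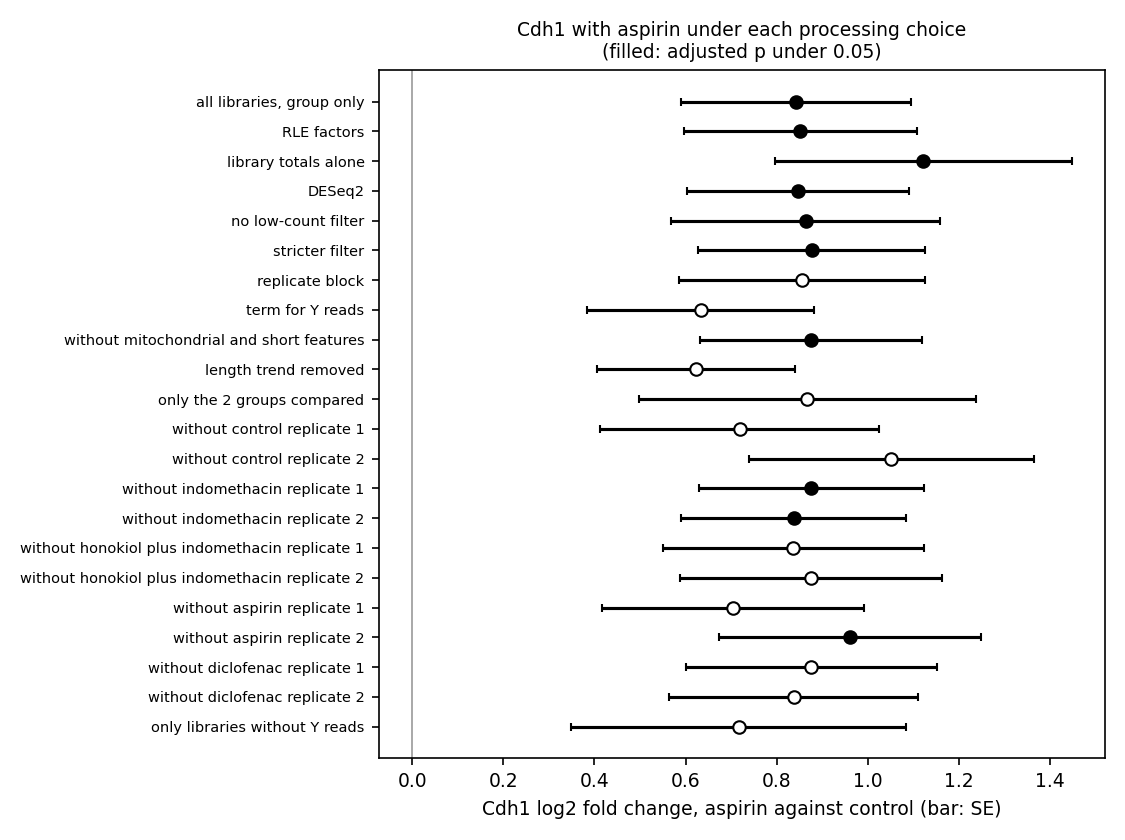
Log2 fold change of Cdh1 with aspirin against control (x axis, bars are SE) with all libraries and under 21 other processing choices (rows); filled points have an adjusted p under 0.05. The values run from 0.62 to 1.12, and 9 of the 21 alternatives are filled.

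In TMM-scaled CPM, Cdh1 moved with the mitochondrial share of the libraries. In the 5 libraries with 21.1% to 23.8% of counts on mitochondrial features, which are both aspirin, both diclofenac and indomethacin replicate 2, Cdh1 had 206 to 251 CPM. In the other 5 libraries, with shares of 31.5% to 36.2%, it had 113 to 162 CPM. In TPM, which scales each library by its counts per kilobase, these 2 sets of libraries overlapped. There honokiol plus indomethacin replicate 1 had 31.5, above both diclofenac libraries (27.7 and 30.0) and aspirin replicate 2 (30.8). The remaining libraries with high mitochondrial shares had 15.7 to 25.4 TPM. Leaving mitochondrial and short single-exon features out of the fit gave a log2 fold change of 0.88 ± 0.24 with aspirin (SE, adjusted p in edgeR = 0.033), as large as with them. That fit tested 15605 genes, so the scaling, the estimated spread and the adjustment of p all changed. It holds no term for the mitochondrial share. The part of this share in the Cdh1 values was therefore not tested. In bulk tissue, fewer cells of a type and less RNA per cell cannot be told apart.

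**Figure D4:**
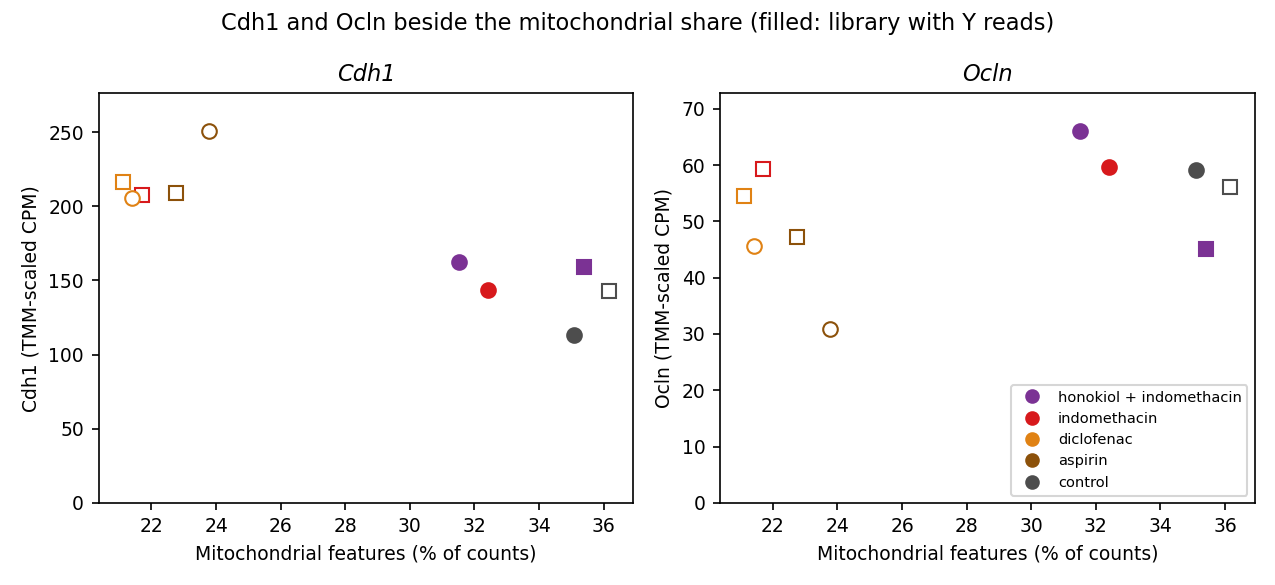
TMM-scaled CPM of Cdh1 and Ocln (y axes, from 0) against the percentage of counts on mitochondrial features (x axes) in each library, coloured by group; circles are replicate 1, squares replicate 2, and filled symbols are libraries with Y reads. On this scale Cdh1 forms 2 clusters, at 206 to 251 CPM below 24% and 113 to 162 CPM above 31%. The Ocln values of these clusters overlap, and in TPM those of Cdh1 overlap too.

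Ocln encodes occludin, a membrane-spanning protein of tight junctions. It lies on the minus strand of chromosome 2 from 30527715 to 30577218, with 11 distinct exons and 4303 nt of exon sequence. Aspirin libraries had 30.9 and 47.2 CPM, against 59.1 and 56.0 CPM in control libraries. Both aspirin values lay below both controls, and aspirin replicate 1 was the lowest of the 10 libraries. The log2 fold change was -0.56 ± 0.25 (SE), a fold of 0.68 with a 95% interval of 0.465 to 0.993, and it did not pass the test (edgeR adjusted p = 0.13). Without aspirin replicate 2 the log2 fold change was -0.90, and without aspirin replicate 1 it was -0.28, so replicate 1 set much of the size. The first of these had an edgeR adjusted p of 0.041, which rests on 1 aspirin library with its spread taken from the other groups.

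Diclofenac libraries had 45.7 and 54.5 CPM of Ocln, against 59.1 and 56.0 CPM in control libraries, a log2 fold change of -0.20 ± 0.25 (SE, adjusted p in edgeR = 0.64) with a 95% interval of the fold from 0.596 to 1.27. Indomethacin libraries had 59.7 and 59.4 CPM, within 1 CPM of the higher control, a log2 fold change of 0.05 ± 0.25 (SE, adjusted p in edgeR = 0.97) and an interval of the fold from 0.709 to 1.51. With honokiol before indomethacin Ocln was spread widely, at 66.1 and 45.1 CPM, on either side of both the indomethacin and the control values. Its log2 difference was -0.05 ± 0.25 from control and -0.10 ± 0.25 from indomethacin (SE, adjusted p in edgeR = 0.97 and 0.94). From high to low the TMM-scaled means were indomethacin, control, honokiol plus indomethacin, diclofenac and aspirin. Neighbours in this order did not differ by the test, and honokiol plus indomethacin was not compared with diclofenac.

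The promoters are shown because Snail and Zeb repressors, which lower E-cadherin and occludin transcription in cultured epithelial cells, bind the E-box CAGGTG. RefSeq (build GRCr8, not the coordinates of the count files) gave a window of 250 bases before to 50 after the start for 3 of the 4 genes, Ocln, Tjp1 and Cldn1. Those of the best expressed and of the nearly silent tight junction gene follow, 5′ to 3′ on the gene's strand, with CAGGTG on either strand in capitals.
Ocln promoter, chr2:33441149-33441448, minus strand: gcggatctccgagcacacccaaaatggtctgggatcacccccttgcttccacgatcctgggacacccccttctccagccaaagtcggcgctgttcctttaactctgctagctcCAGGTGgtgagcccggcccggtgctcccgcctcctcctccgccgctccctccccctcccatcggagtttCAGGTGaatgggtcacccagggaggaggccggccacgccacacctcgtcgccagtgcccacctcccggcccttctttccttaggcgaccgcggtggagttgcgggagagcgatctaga
Cldn1 promoter, chr11:87926126-87926425, plus strand: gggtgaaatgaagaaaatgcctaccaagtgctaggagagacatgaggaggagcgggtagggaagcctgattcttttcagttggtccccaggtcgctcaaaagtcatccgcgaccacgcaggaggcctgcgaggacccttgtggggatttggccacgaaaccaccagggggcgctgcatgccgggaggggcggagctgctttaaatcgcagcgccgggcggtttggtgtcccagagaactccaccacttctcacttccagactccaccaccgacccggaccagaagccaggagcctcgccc

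The Ocln window held 2 copies of CAGGTG, beginning at bases 114 and 183 of the window. The Cldn1 and Tjp1 windows held 0. Only 33.7% of the bases in the Tjp1 window were G or C, against a median of 51.7% over all windows. Whether its listed start is a promoter used in the stomach was not checked, so its motif counts describe that window alone. Of all 33469 promoters listed, 18.8% held at least 1 copy and 2.52% held 2 or more. The wider motif CANNTG, which includes CAGGTG, occurred 2 times each in the Ocln and Cldn1 windows and 1 time in that of Tjp1, and in 72.1% of all windows. Neither the cyclic AMP response motif TGACGTCA nor the AP-1 motif TGAGTCA occurred in the 3 windows, and they were found in 1.83% and 4.63% of all windows. A match of letters is a description of the window and shows no binding.

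Within each library the ratio of Cdh1 to Ocln does not depend on how libraries are scaled. Both genes have nearly the same exon length, and the ratio was taken per kilobase. Aspirin libraries had ratios of 7.94 and 4.33, and diclofenac libraries 4.41 and 3.89. Indomethacin libraries had 2.35 and 3.42, honokiol plus indomethacin libraries 2.40 and 3.45, and control libraries 1.88 and 2.50. Every aspirin and diclofenac library thus had a higher ratio than every library of the other 3 groups, whereas indomethacin and honokiol plus indomethacin each overlapped control. The log2 ratio was higher than in control by 1.44 with aspirin and by 0.94 with diclofenac. An exact two-sided permutation test of 2 against 2 libraries gave p = 0.33 for each, the smallest this design allows. The ratio was noticed after the values were seen, and the libraries with high ratios are also all without Y reads.

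**Figure D5:**
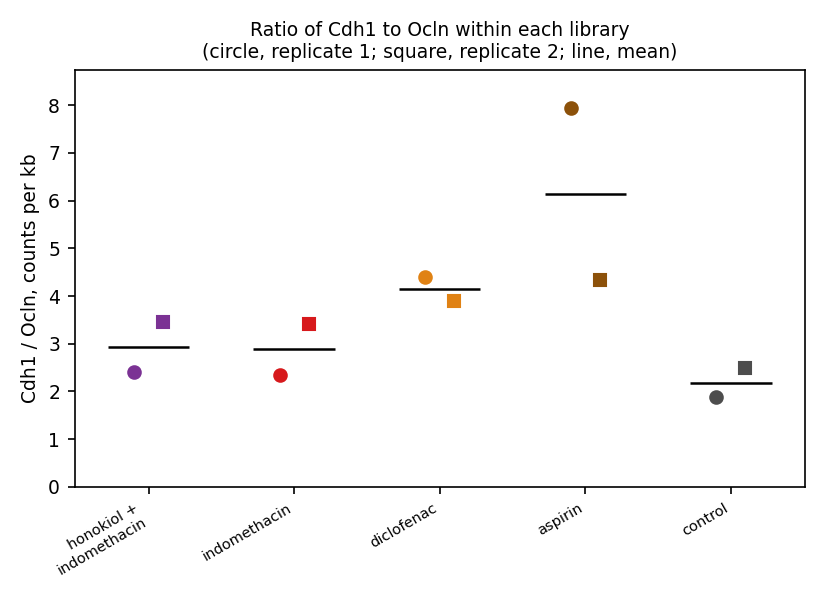
Ratio of Cdh1 to Ocln per kilobase (y axis, from 0) within each library of the 5 groups (x axis); circles are replicate 1, squares replicate 2 and lines the group mean. The diclofenac and aspirin libraries lie at 3.89 to 7.94, above the highest of the other libraries at 3.45.

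Tjp1 encodes ZO-1, the scaffold that links occludin and claudins to actin. It lies on the minus strand of chromosome 1 from 126146489 to 126227469, with 31 distinct exons and 6917 nt of exon sequence, the longest of the 4. Diclofenac libraries had 67.3 and 55.2 CPM, against 38.4 and 52.1 CPM in control libraries, without overlap. The log2 fold change was 0.44 ± 0.22 (SE), a fold of 1.35 with a 95% interval of 0.963 to 1.90, and it did not pass the test (edgeR adjusted p = 0.23). Aspirin libraries had 60.5 and 48.3 CPM, around the higher control, and a log2 fold change of 0.26 ± 0.22 (SE, adjusted p in edgeR = 0.41, interval of the fold 0.855 to 1.69).

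Indomethacin libraries had 47.7 and 53.9 CPM of Tjp1, against 38.4 and 52.1 CPM in control libraries, a log2 fold change of 0.17 ± 0.22 (SE, adjusted p in edgeR = 0.86). Honokiol plus indomethacin libraries had 45.7 and 53.7 CPM, nearly the same pair of values, with a log2 difference of -0.03 ± 0.22 from indomethacin and 0.14 ± 0.22 from control (SE, adjusted p in edgeR = 0.98 and 0.90). Tjp1 varied least of the 4 genes: its highest library was 1.75 times its lowest, compared with 2.14 times for Ocln, 2.22 times for Cdh1 and 17.5 times for Cldn1. When each library's trend with gene length was removed, the aspirin value against control became -0.05, so its sign depended on that choice. The diclofenac value against control fell from 0.44 to 0.21 with the same correction, and was 0.30 with a term for Y reads. Over all 21 alternative fits the diclofenac value ran from 0.21 to 0.70. The ratio of Cdh1 to Tjp1 per kilobase was 6.53 and 6.80 with aspirin and 4.81 and 6.17 with diclofenac, against 4.64 and 4.32 in control. It was 4.72 and 6.06 with indomethacin and 5.58 and 4.66 with honokiol plus indomethacin. Every drug library lay above both controls, but honokiol plus indomethacin replicate 2 (4.66) was nearly level with control replicate 1 (4.64). The exact permutation test gave p = 0.33 for each drug group against control, the smallest this design allows. By mean TMM-scaled CPM the order was diclofenac, aspirin, indomethacin, honokiol plus indomethacin and control, and no neighbours differed by the test.

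Cldn1 encodes claudin-1, a sealing claudin best known from the epidermis. It lies on the plus strand of chromosome 11 from 77815181 to 77830416, with 4 distinct exons and 3301 nt of exon sequence. It was close to the limit of detection in every group, with 89 counts over all 10 libraries. Honokiol plus indomethacin libraries had 18 and 8 counts, indomethacin 15 and 3, diclofenac 13 and 12, aspirin 5 and 8, and control 6 and 1. As CPM, the highest library was honokiol plus indomethacin replicate 1 at 0.583 (exact 95% Poisson interval 0.345 to 0.921) and the lowest control replicate 2 at 0.0334 (0.000846 to 0.186). These intervals cover counting error only.

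Summed over libraries, Cldn1 had 26 counts with honokiol plus indomethacin and 7 in control, a depth-corrected ratio of 3.97 with an exact 95% interval of 1.68 to 10.8 for counting error. Between libraries the spread was wider, and the test was not passed at a log2 fold change of 1.94 ± 0.89 (SE, adjusted p in edgeR = 0.83). The comparison of honokiol plus indomethacin with control called 0 of the 4 genes and 0% of all genes by edgeR, with 1 of the 4, Cldn1, and 816 of all genes at an unadjusted p under 0.05, while DESeq2 called 16 genes, none of them Ocln, Tjp1 or Cdh1, and gave no adjusted p for Cldn1. With diclofenac the summed counts were 25 against 7 in control, a ratio of 2.56 (interval 1.07 to 7.00), and the log2 fold change was 1.34 ± 0.89 (SE, adjusted p in edgeR = 0.36). Indomethacin and aspirin had 18 and 13 summed counts against the same 7, ratios of 2.12 (interval 0.844 to 6) and 1.65 (0.611 to 4.88). Their log2 fold changes were 1.09 ± 0.92 and 0.71 ± 0.96 (SE, adjusted p in edgeR = 0.77 and 0.62). The 4 libraries that reached 10 counts belonged to 3 groups, and the edgeR interval of the fold with aspirin, 0.383 to 6.99, shows how little this depth resolves.

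Honokiol before indomethacin was compared with indomethacin alone to see whether the pretreatment, which the protocol calls protective, altered these genes. None of the 4 was called by edgeR or DESeq2, in a comparison where edgeR called 0.343% of all genes. At an unadjusted edgeR p under 0.05 there were 0 of the 4 and 1552 of all 16346 tested genes. The log2 differences were -0.13 for Cdh1, -0.10 for Ocln, -0.03 for Tjp1 and 0.85 for Cldn1. Their 95% intervals as folds were 0.625 to 1.34 for Cdh1, 0.64 to 1.36 for Ocln, 0.696 to 1.37 for Tjp1 and 0.55 to 5.93 for Cldn1. Differences within these limits were not resolved with 2 libraries a group. Indomethacin against control likewise called 0 of the 4 by edgeR and none by DESeq2, where edgeR called 0.777% of all genes. It had 0 of the 4 and 1614 of all tested genes at an unadjusted edgeR p under 0.05.

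The drugs were also set against each other, at doses that differ. Between indomethacin and aspirin, Ocln had 59.7 and 59.4 CPM with indomethacin and 30.9 and 47.2 CPM with aspirin, without overlap. The log2 difference was 0.61 ± 0.25 (SE, adjusted p in edgeR = 0.22). Ocln was the 1 of the 4 genes with an unadjusted edgeR p under 0.05, which 3283 of all 16346 tested genes had. None of the 4 was called between indomethacin and aspirin or between indomethacin and diclofenac, where 0.0184% of all genes were called each time. Between diclofenac and aspirin 0 of the 4 and 0% of all genes were called by edgeR (0 of the 4 and 852 of all genes at an unadjusted p under 0.05), and DESeq2 called 7 genes and none of the 4. The log2 difference of Cdh1 was -0.12 ± 0.25 between diclofenac and aspirin and -0.39 ± 0.25 between indomethacin and aspirin (SE, adjusted p in edgeR = 0.91 and 0.39). Its 95% intervals as folds were 0.628 to 1.34 and 0.522 to 1.12, so the call with aspirin is not shown to differ from the values with the other drugs.

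Across the 10 libraries the genes did not form 1 pattern. In log2 CPM, Cdh1 and Tjp1 correlated at r = 0.75, whereas Ocln correlated at r = -0.61 with Cdh1 and -0.60 with Tjp1. Cldn1 had r of -0.10 to 0.09 with the others. These are descriptions over libraries that share group means, depth and composition. Of 11186 other genes whose average log2 CPM reached 1, the pattern most like that of Cdh1 was ENSRNOG00000007133 on chromosome 7 from 130135464 to 130151880, with r = 0.97, and 221 genes exceeded r = 0.9. For Ocln the nearest was ENSRNOG00000039862 on chromosome 4 from 25686392 to 25692547, with r = 0.98, and 128 genes exceeded 0.9. Tjp1 had 50 such genes, with a highest r of 0.95, and Cldn1 had 0 of 11187, with a highest r of 0.88. None of the 8 tested genes within 250 kb of Cdh1 was called with indomethacin, diclofenac or aspirin. Of all genes, 0.777%, 7.87% and 17.8% were called with these drugs, so 0 of 8 says little. Neither of the 2 tested around Cldn1 was called, and none around Tjp1 was tested. Of the 15 around Ocln, 2 were called lower with diclofenac and 1 with aspirin, where 3.11% and 8.26% of all genes were called lower.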

How the data were processed

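The labels' protocols describe stranded paired-end libraries from total RNA after removal of ribosomal RNA. Per the file headers, the authors deposited 1 table per library holding raw counts per gene beside exon length. The submitters' processing notes name cutadapt 1.16, HISAT2 2.1.0 and featureCounts among other tools. The build, the strand setting and the treatment of multiply mapped reads are not stated. No annotated gene overlaps any of the 4 spans. The files list identifiers only; symbols were assigned by identifier and chromosome, and RefSeq places all 4 symbols on the same chromosomes. The 22 lists of other junction genes and cell markers could not be applied, since 0 identifiers matched the reference.

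All 10 libraries entered 1 quasi-likelihood fit in edgeR 4.0.16 (R 4.3.3): TMM factors, filterByExpr (minimum count 10, total 15), group as the only term, 5 residual degrees of freedom. The code was run on simulated counts with large changes and without differences in Y reads or mitochondrial share. That run does not bear on whether the calls made here hold. Calls have an adjusted p under 0.05 (Benjamini-Hochberg over 16346 genes). The SE is the log2 fold change divided by the square root of F. Log2 CPM used a prior count of 2. DESeq2 1.42.0 was an alternative. Members, lists and tests were chosen with earlier results of these data known. The naming rule takes the 4 genes, and for likeness the 3 genes with the highest r, of which at most 2 identifiers are printed. Libraries with the same replicate number did not deviate together (correlations -0.26 to 0.30, median -0.11), so the numbers were not taken as pairs. The SAMtools version is not used here.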

Additional observations from a re-analysis of the deposited data

How the results depend on the processing

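Each log2 fold change had 18 to 21 alternative fits: honokiol plus indomethacin had none among libraries without Y reads, and Cldn1 gave no value under the stricter filter nor in 4 of the fits of 2 groups. In those run, 19 of the 32 log2 fold changes kept their sign. Among them, each against control, were Cdh1 and Ocln with aspirin and with diclofenac, and Cdh1 with indomethacin. Cdh1 with aspirin was the 1 called value, and it fell under the threshold with the replicate block (log2 fold change 0.86), the Y-read term (0.63), the length trend removed (0.62), only aspirin and control fitted (0.87) and, added after seeing the data, only libraries without Y reads (0.72, edgeR adjusted p = 0.30); its adjusted p ran from 0.0060 to 0.30. Leaving out 1 library it ran from 0.70 to 1.05, and stayed called only without indomethacin replicate 1 or 2 or aspirin replicate 2. Cdh1 with diclofenac was called by DESeq2 alone (0.73). Ocln with aspirin ran from -0.90 to -0.28 with 1 library left out and had an adjusted p under 0.05 only without aspirin replicate 2, on 1 aspirin library; a lone library is assumed to vary like the other groups. The replicate block changed no other call among the 4 genes. The other sign changes were among uncalled values, and their cause was not tested. With library totals alone, honokiol plus indomethacin gave 0.17 for Ocln against control and, against indomethacin, 0.022 for Ocln and 0.051 for Tjp1. The Y-read term gave, against indomethacin, 0.12 for Tjp1 and 0.11 for Cdh1, and between indomethacin and aspirin 0.056 for Tjp1 and -1.24 for Cldn1 (-1.25 in libraries without Y reads). The length correction gave -0.0022 for Ocln with indomethacin, and for Tjp1 -0.046 with aspirin, -0.021 with honokiol plus indomethacin against control and 0.21 between indomethacin and aspirin. With 1 library left out, indomethacin against control ran from -0.017 to 0.42 for Tjp1 and -0.51 to 2.76 for Cldn1. Honokiol plus indomethacin against control ran from -0.36 to 0.21 for Ocln and -0.058 to 0.38 for Tjp1, and against indomethacin from -0.40 to 0.15 for Ocln, -0.16 to 0.074 for Tjp1 and -0.39 to 0.16 for Cdh1. Between drugs, indomethacin and aspirin ran from -0.24 to 0.075 for Tjp1 and -1.25 to 1.15 for Cldn1, indomethacin and diclofenac from -1.87 to 0.52 for Cldn1, and diclofenac and aspirin from -0.24 to 0.017 for Cdh1. Ratios of group means to control in TPM, set against those in TMM-scaled CPM per kilobase, moved by less than the spread of both groups' replicates combined. For honokiol plus indomethacin they were 1.15 against 0.97 for Ocln, 1.26 against 1.10 for Tjp1 and 1.45 against 1.25 for Cdh1, so that in TPM this group had the highest mean of Ocln and Tjp1 and stood above indomethacin for Cdh1. Counts of called genes ran from 184 to 4198 with aspirin (2903 with all libraries), 150 to 2650 with diclofenac (1286), 1 to 834 with indomethacin (127) and 0 to 153 with honokiol plus indomethacin against control (0). They ran from 0 to 699 against indomethacin (56), 0 to 872 between indomethacin and diclofenac (3), 1 to 1414 between indomethacin and aspirin (3) and 0 to 140 between diclofenac and aspirin (0).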
